A study of Mus musculus with 9 samples.

Results

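The genes described here are 47 genes of the DNA replication machinery of fetal pulmonary lymphatic endothelial cells (PLECs), those that mark replication origins, load and start the replicative helicase, and copy and protect DNA at the fork. They were chosen by symbol for their place in these complexes, with no measured value in the rule, and all 47 were matched among the 25206 gene rows of the arrays. The cells came from fetal lungs of C57BL/6N mice at 3 days of late gestation, E16.5, E17.5 and E18.5, with no other treatment or mutation. They were sorted as CD45-/Epcam-/CD31+/Vegfr3+/Lyve1+/Pdpn+, and RNA was measured on Mouse Gene 2.0 ST arrays, with 3 samples and 3 arrays for each day. Each sample was a pool of 10 to 21 embryonic lungs taken from 2 litters. The p-values therefore rest on the spread between pools, not between single fetuses. Levels are log2 values after robust multiarray averaging (RMA), where 1 unit is a doubling. They are not counts, and a level of one gene cannot be set against a level of another, because each gene has its own probes.

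Before a cell can copy its genome, the origin recognition complex (ORC) binds origins and, with Cdc6 and Cdt1, loads the Mcm ring onto DNA in an inactive form, a step called licensing. At the onset of S phase the Dbf4-dependent kinase Cdc7 and cyclin-dependent kinases activate the ring by recruiting Cdc45 and the GINS complex, with the help of Mcm10. Polymerase alpha-primase then makes short primers that polymerases epsilon and delta extend on the clamp Pcna, while Rpa coats single-stranded DNA, Fen1, Dna2 and Lig1 finish the lagging strand, and Tipin, Timeless and Wdhd1 keep the fork together. Transcripts of many of these genes are known to be more abundant in dividing cells than in resting ones.

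The sorted samples carried transcripts of lymphatic endothelium on each day, and *Prox1*, the transcription factor that specifies it, averaged 5.22 at E16.5, 4.90 at E17.5 and 5.64 at E18.5, above array medians of 3.79 to 3.91. In E17.5 sample 2 *Prox1* stood at 4.11, with an array median of 3.87, against 5.24 and 5.36 in samples 1 and 3 of that day. Of the 9 lymphatic markers matched, 1 was called higher on E18.5 than on E16.5 (*Pdpn*) and 0 lower. Their mean level ran from 6.72 to 6.97 at E16.5, from 6.48 to 6.93 at E17.5 and from 6.97 to 7.32 at E18.5. Transcripts of blood endothelium were present on each day as well, and *Emcn*, a marker of it, averaged 10.7, 10.7 and 10.4. The mean level of 10 blood endothelial markers ran from 8.02 to 8.34, from 8.39 to 8.56 and from 8.34 to 8.73 on the 3 days. Of these 10, 1 was called lower and 2 higher at E18.5. The lower one was *Plvap* (log2 change -0.76, FDR q = 0.040, limma). *Car4* rose most of the 10, with averages of 4.80, 6.80 and 8.42 on the 3 days (log2 change 3.62, FDR q = 0.0035, limma). *Vwf* rose by 0.89 (FDR q = 0.023, limma). All 6 markers of alveolar type I epithelium rose between E16.5 and E18.5, and their mean level ran from 5.34 to 5.46 at E16.5, from 5.52 to 6.12 at E17.5 and from 7.0 to 7.36 at E18.5, although Epcam+ cells had been gated out. Of 6 alveolar type II markers 2 rose between E16.5 and E18.5 (mean level 5.73 to 6.67, 5.47 to 6.48 and 7.73 to 8.09 on the 3 days). In the step from E17.5 to E18.5, 4 of these 6 were called higher, as were 166 of all 14096 tested genes. Over the 3 days 4 of the 6 changed (limma moderated F, FDR q under 0.05). Between E16.5 and E18.5, 1 of 4 airway markers rose (4.36 to 4.87, 3.76 to 5.33 and 5.54 to 6.84). Of the matched general epithelial (4), fibroblast (6), leukocyte (5, of which 3 were tested), platelet (4) and erythroid (2) markers 0 were called either way in that comparison. Over all 14096 tested genes it called 532 higher and 875 lower. Platelet markers averaged 6.23 to 6.58, 6.6 to 7.26 and 6.55 to 8.86 on the 3 days. Their median log2 change between E16.5 and E18.5 was 1.48, and 3 of the 4 were higher at an unadjusted p under 0.05 (limma), as were 1571 of all 14096 tested genes. The 2 erythroid markers had changes of 1.16 and 1.30, short of the threshold. The part of these other transcripts in the results on the replication genes was not tested. Among the E18.5 samples, sample 2 had the lowest level in 35 of the 47 genes, where it was lowest in 37.0% of all tested genes.

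Transcripts of the replication machinery fell between E16.5 and E18.5, with at least 1 gene called lower in each of 11 roles. With limma and Benjamini-Hochberg adjustment over all 14096 tested genes, 36 of the 47 genes were lower at E18.5 at an FDR q under 0.05 and 0 were higher, where 6.21% of all tested genes were called lower. At an unadjusted p under 0.05 the counts were 45 lower and 0 higher, where 2383 of all 14096 tested genes were lower and 1571 higher. The median log2 change was -1.16 over the 47 genes and -0.04 over all tested genes. Of the 36 called genes 27 fell by at least 1 log2 unit, a count not made over all tested genes. Every E18.5 sample lay below every E16.5 sample in 45 of the 47 genes, which was so for 18.3% of all tested genes, and *Orc4* and *Timeless* were the exceptions. Ranked by fall among all tested genes, *Prim1* stood at 3, *Pole* at 5, *Mcm5* at 6 and *Tipin* at 7, and 16 of the 47 genes were among the 100 largest falls. The samples are bulk pools, so fewer cells that express a gene and less of its RNA per cell cannot be told apart.

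**Figure D1:**
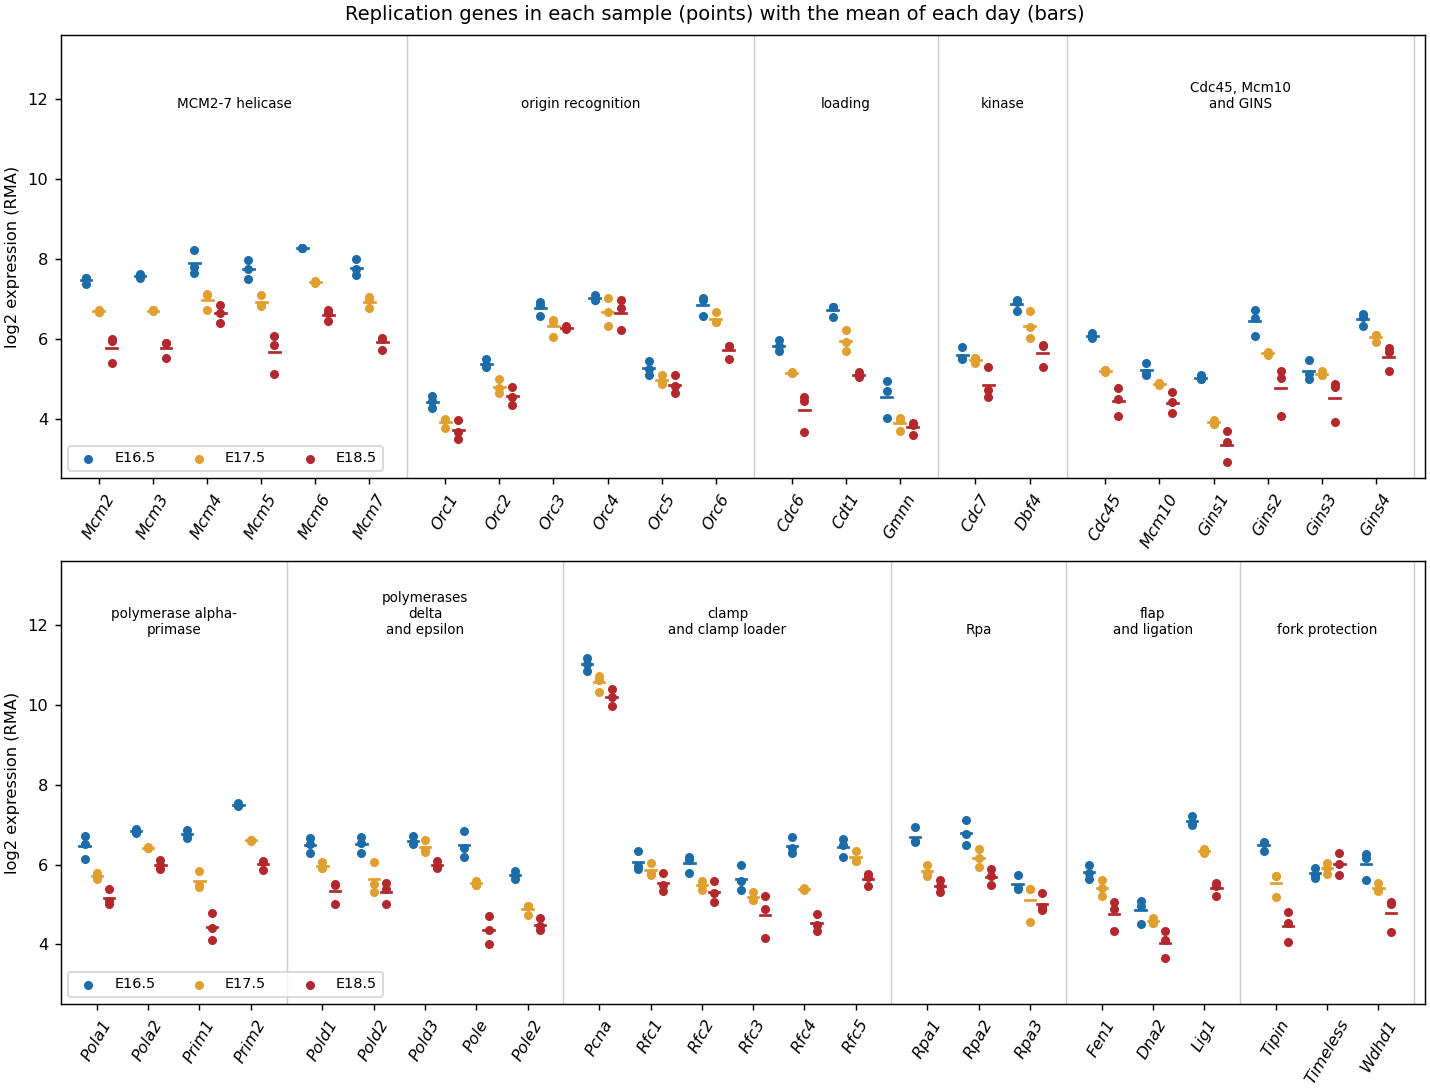
Level of each of the 47 replication genes in each sample (points, log2 RMA value on the vertical axis) with the mean of each day (bars), grouped by role and coloured by embryonic day. In 45 genes all 3 E18.5 points lie below all 3 E16.5 points, and *Orc4* and *Timeless* are the genes where they overlap.

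The 11 genes that did not pass this test were *Orc3*, *Orc4*, *Orc5*, *Gmnn*, *Cdc7*, *Gins3*, *Rfc1*, *Rfc3*, *Rpa3*, *Dna2* and *Timeless*. Of the 36 calls, 17 were kept under every alternative run (*Mcm2*, *Mcm3*, *Mcm5*, *Mcm6*, *Mcm7*, *Cdt1*, *Cdc45*, *Gins1*, *Prim1*, *Prim2*, *Pola2*, *Pole*, *Pole2*, *Rfc4*, *Rpa1*, *Lig1* and *Tipin*), and 19 were lost when at least 1 sample was left out. Without E16.5 sample 3 the count of calls was 18 and without E16.5 sample 1 it was 24, while 30 genes were called without E18.5 sample 2, the sample that was often lowest, with a median change of -1.0. Lower calls over all tested genes dropped as well, from 875 to 217, 324 and 419 under these settings in the same order. Levels were near the array medians for *Orc1*, *Cdc6*, *Gmnn*, *Gins1* and *Dna2*, which lay above the median on 6, 8, 5, 5 and 8 of the 9 arrays, so the size of their change is less certain. The other 42 genes lay above it on all 9.

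**Figure D2:**
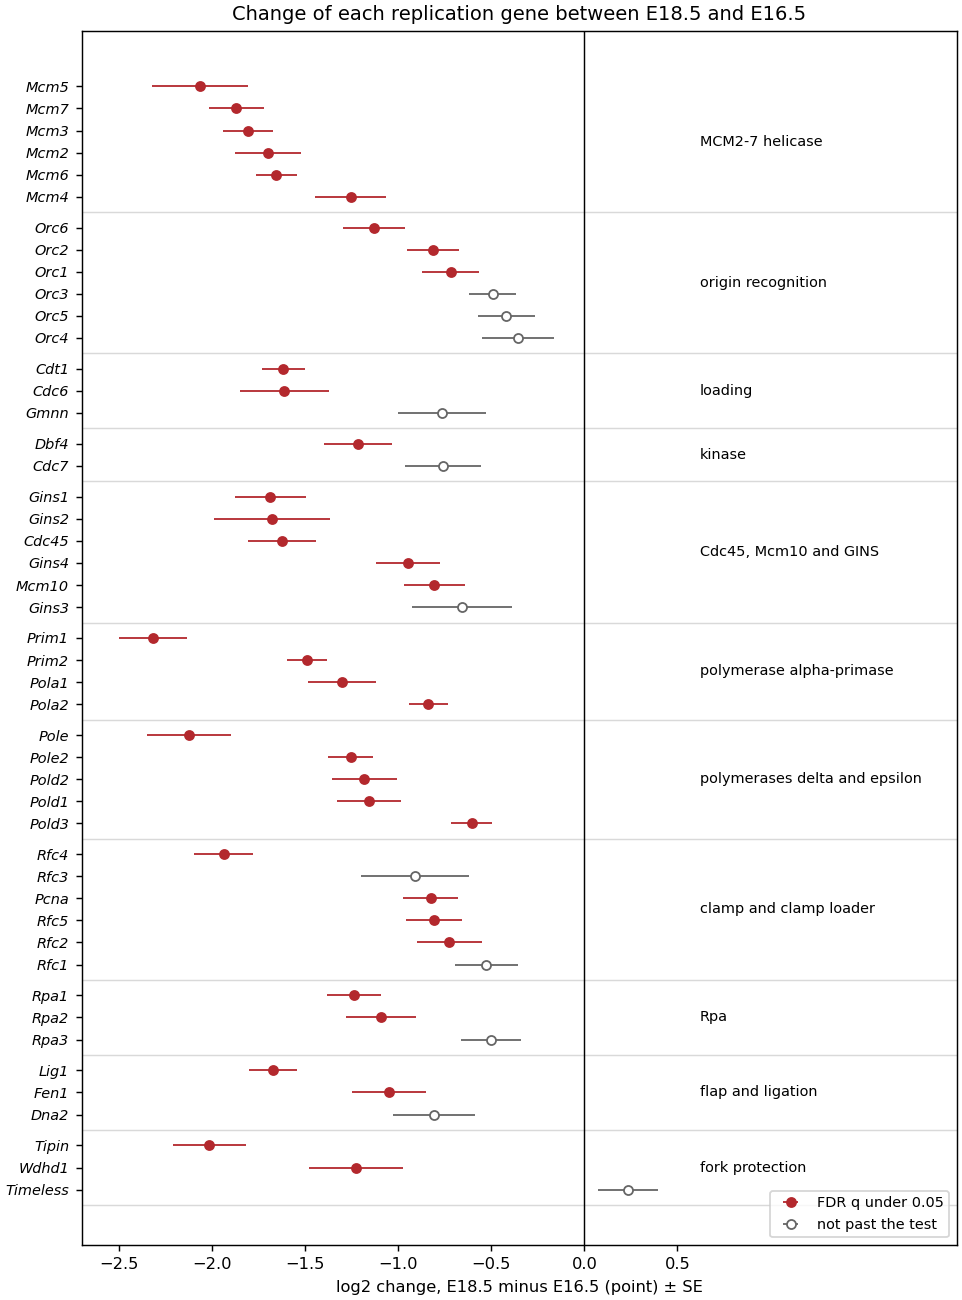
Log2 change of each replication gene, E18.5 minus E16.5 (points, bars are ± SE from limma, horizontal axis), with genes in rows grouped by role and filled points for an FDR q under 0.05. The changes run from -2.32 for *Prim1* to 0.24 for *Timeless*, the one gene right of 0.

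All 6 genes of the Mcm ring, the helicase that unwinds DNA at each fork, fell, with a median log2 change of -1.75 and a range of -2.06 to -1.26. *Mcm5* had levels of 7.75, 7.49 and 7.97 at E16.5, 6.83, 7.09 and 6.85 at E17.5, and 5.85, 5.11 and 6.06 at E18.5. The days did not overlap, and *Mcm5* was 4.18-fold lower on E18.5 than on E16.5 (log2 change -2.06 ± 0.26 SE, FDR q = 0.0065, limma). *Mcm7* had 7.74, 7.6 and 8.0 at E16.5, 6.97, 7.04 and 6.76 at E17.5, and 6.02, 5.73 and 5.99 at E18.5. Its days were also separate, and its log2 change was -1.87 ± 0.15 (SE, FDR q = 0.0021, limma). *Mcm3* had 7.52, 7.59 and 7.61 at E16.5, 6.71, 6.71 and 6.69 at E17.5, and 5.89, 5.52 and 5.89 at E18.5, with little spread at E17.5. Its change of -1.81 ± 0.13 (SE, FDR q = 0.0021, limma) was a 3.49-fold fall. *Mcm2* had 7.52, 7.38 and 7.52 at E16.5, 6.66, 6.67 and 6.73 at E17.5, and 5.94, 5.38 and 6.0 at E18.5, and E18.5 sample 2 stood below the other samples of its day. *Mcm2* fell by 1.70 on the log2 scale (FDR q = 0.0037, limma). *Mcm6* had 8.27, 8.26 and 8.26 at E16.5, 7.45, 7.41 and 7.39 at E17.5, and 6.64, 6.45 and 6.73 at E18.5. The E16.5 samples of *Mcm6* were nearly identical, and its change was -1.65 ± 0.11 (SE, FDR q = 0.0019, limma). *Mcm4* had 7.64, 8.23 and 7.8 at E16.5, 7.09, 6.72 and 7.12 at E17.5, and 6.65, 6.4 and 6.85 at E18.5. In *Mcm4* the days E17.5 and E18.5 overlapped, its change of -1.26 ± 0.19 (SE, FDR q = 0.011, limma) was the smallest of the 6, and without E16.5 sample 3 its FDR q was 0.054.

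Promoter windows, from 250 bases before to 50 after the annotated start, were given by RefSeq (build GRCm38.p6) for 38 of the 47 genes. They are shown because 36 of the 47 genes were called in 1 direction and because E2F transcription factors are known to bind promoters of many S-phase genes. The letters TTTCCCGC, TTTCGCGC, TTTGCCGC or TTTGGCGC, searched on both strands, stood in the windows of 15 of the 38 genes (39.5%), in those of 704 of the 27025 genes of the same table (2.60%) and in those of 575 of its 17492 protein-coding genes (3.29%). Matches on opposite strands can overlap and count as 1 gene. In the sequences below, written from 5′ to 3′ in the direction of the gene, capitals mark these letters on either strand. The windows shown of *Mcm3*, *Mcm5*, *Mcm6* and *Mcm7* hold them, and that of *Prim1*, the gene with the largest fall, does not. Only exact matches were counted, and a window without them can hold similar letters, as that of *Prim1* does with ttcccgcc. The start of the *Mcm7* window lies 228 bases inside the annotated gene, and *Mcm7* has a further window without the letters.
Mcm3 promoter, chr1:20820263-20820562, minus strand: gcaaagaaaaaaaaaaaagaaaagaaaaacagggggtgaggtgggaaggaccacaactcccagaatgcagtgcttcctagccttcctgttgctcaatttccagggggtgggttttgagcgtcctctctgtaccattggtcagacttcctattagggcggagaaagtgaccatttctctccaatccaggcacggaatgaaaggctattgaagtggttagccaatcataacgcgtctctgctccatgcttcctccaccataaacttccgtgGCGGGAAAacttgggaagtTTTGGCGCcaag
Mcm5 promoter, chr8:75109259-75109558, plus strand: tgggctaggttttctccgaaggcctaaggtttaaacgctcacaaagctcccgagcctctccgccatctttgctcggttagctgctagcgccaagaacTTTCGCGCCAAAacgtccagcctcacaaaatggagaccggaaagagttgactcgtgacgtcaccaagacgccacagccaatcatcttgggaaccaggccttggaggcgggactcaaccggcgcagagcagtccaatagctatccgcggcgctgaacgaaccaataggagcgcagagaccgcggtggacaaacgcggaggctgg
Mcm6 promoter, chr1:128359656-128359955, minus strand: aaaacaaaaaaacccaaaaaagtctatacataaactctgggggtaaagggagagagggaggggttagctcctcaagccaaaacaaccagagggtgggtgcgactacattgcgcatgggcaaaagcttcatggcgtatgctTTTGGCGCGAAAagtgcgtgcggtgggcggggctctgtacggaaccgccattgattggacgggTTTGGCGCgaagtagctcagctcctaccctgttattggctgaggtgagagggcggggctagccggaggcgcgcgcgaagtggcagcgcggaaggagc
Mcm7 promoter, chr5:138171834-138172133, minus strand: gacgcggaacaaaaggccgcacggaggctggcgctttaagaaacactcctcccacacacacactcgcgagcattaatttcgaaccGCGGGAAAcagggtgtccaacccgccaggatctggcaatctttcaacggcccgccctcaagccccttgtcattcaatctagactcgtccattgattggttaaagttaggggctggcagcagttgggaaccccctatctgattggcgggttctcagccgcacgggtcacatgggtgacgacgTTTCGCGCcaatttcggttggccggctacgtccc
Prim1 promoter, chr10:128014965-128015264, plus strand: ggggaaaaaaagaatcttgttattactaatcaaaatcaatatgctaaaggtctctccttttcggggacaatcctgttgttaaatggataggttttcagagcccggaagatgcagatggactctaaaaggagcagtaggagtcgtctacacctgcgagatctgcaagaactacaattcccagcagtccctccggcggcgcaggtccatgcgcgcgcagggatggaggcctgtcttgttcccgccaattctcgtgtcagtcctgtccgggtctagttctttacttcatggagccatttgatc

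In *Mcm5* and *Mcm6* the capitals include matches on opposite strands that overlap, and the *Mcm3* window holds its matches after the start of the gene. Of the 15 genes with the letters, 12 were called lower at E18.5 with a median log2 change of -1.30, and of the 23 with a window but without them 16 were called lower with a median of -0.84, a difference that was not tested. The ranges overlapped almost wholly, from -2.06 to -0.49 with the letters and from -2.32 to 0.24 without. The windows with the letters belong to *Mcm3*, *Mcm5*, *Mcm6*, *Mcm7*, *Orc1*, *Orc3*, *Cdc6*, *Cdt1*, *Gins3*, *Pola1*, *Pold1*, *Pold3*, *Pole2*, *Rfc3* and *Lig1*. Annotated starts can lie inside a gene, and for *Orc1*, *Orc4*, *Rfc1* and *Timeless* every window started over 1000 bases from the outer start of the gene, as did the *Lig1* window with the letters. Among windows within 1000 bases of the outer start, a limit chosen after seeing the data, 13 of 34 of these genes held the letters (38.2%), as did 2.43% of all genes and 3.12% of protein-coding genes. A match is a run of letters and does not show that a factor binds there.

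Of the 6 *Orc* genes 3 fell (*Orc6*, *Orc2* and *Orc1*), with a median log2 change of -0.60 over the 6, and of *Orc2* to *Orc5*, which encode core subunits, 1 of 4 fell with a median of -0.46. *Orc6*, the subunit least tightly held in the complex, had 6.96, 6.57 and 7.02 at E16.5, 6.43, 6.67 and 6.41 at E17.5, and 5.83, 5.83 and 5.5 at E18.5. It fell by 1.13 (FDR q = 0.010, limma), with E17.5 sample 2 above E16.5 sample 2, and without E16.5 sample 3 its FDR q was 0.054. *Orc2* had 5.34, 5.49 and 5.29 at E16.5, 5.0, 4.64 and 4.76 at E17.5, and 4.54, 4.78 and 4.35 at E18.5. All E18.5 samples lay below all E16.5 samples, with a change of -0.81 ± 0.14 (SE, FDR q = 0.016, limma). *Orc1*, an ATPase of the complex, had 4.43, 4.57 and 4.27 at E16.5, 3.96, 3.77 and 3.98 at E17.5, and 3.49, 3.96 and 3.66 at E18.5, and fell by 0.72 (FDR q = 0.032, limma). The *Orc2* call was lost without E16.5 sample 1, 2 or 3 or E18.5 sample 1 (FDR q = 0.054 to 0.062), and the *Orc1* call without any of these or without E18.5 sample 3 (FDR q = 0.075 to 0.10). *Orc4* had 6.96, 7.1 and 6.97 at E16.5, 7.01, 6.68 and 6.32 at E17.5, and 6.22, 6.98 and 6.76 at E18.5, so that E18.5 sample 2 lay within the E16.5 range. Its change of -0.36 ± 0.20 (SE, FDR q = 0.27, limma) did not pass the test, as with *Orc3* (-0.49 ± 0.13, FDR q = 0.053) and *Orc5* (-0.42 ± 0.15, FDR q = 0.13).

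Both helicase loaders fell. *Cdt1*, which brings the Mcm ring to ORC, had 6.8, 6.55 and 6.8 at E16.5, 5.7, 6.21 and 5.92 at E17.5, and 5.1, 5.03 and 5.17 at E18.5. The days were separate, and *Cdt1* was 3.07-fold lower on E18.5 than on E16.5 (-1.62 ± 0.12 SE, FDR q = 0.0020, limma). *Cdc6*, the ATPase that works with it, had 5.81, 5.96 and 5.7 at E16.5, 5.15, 5.16 and 5.13 at E17.5, and 4.54, 3.66 and 4.44 at E18.5. Its change was -1.61 ± 0.24 (SE, FDR q = 0.011, limma), E18.5 sample 2 was the lowest by a wide margin, and without E16.5 sample 2 or 3 its FDR q was 0.052. *Gmnn*, which encodes geminin, the protein that binds and inhibits Cdt1, had 4.68, 4.01 and 4.94 at E16.5, 3.97, 4.01 and 3.68 at E17.5, and 3.9, 3.6 and 3.84 at E18.5. The E16.5 samples of *Gmnn* were spread widely, with the lowest level with the top of the E17.5 range, and its change of -0.76 ± 0.24 did not pass the test (FDR q = 0.090, limma), although without E16.5 sample 2 it did (FDR q = 0.035).

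The kinase that fires licensed origins has a catalytic subunit, *Cdc7*, and a regulatory subunit, *Dbf4*. *Dbf4* had 6.98, 6.92 and 6.7 at E16.5, 6.69, 6.29 and 6.01 at E17.5, and 5.83, 5.85 and 5.28 at E18.5. It fell by 1.22 (FDR q = 0.011, limma) with all days separate, and without E16.5 sample 1 or 2 its FDR q was 0.0503 and 0.0517, just over the threshold. *Cdc7* had 5.52, 5.8 and 5.49 at E16.5, 5.51, 5.39 and 5.52 at E17.5, and 4.54, 4.72 and 5.28 at E18.5, nearly level between E16.5 and E17.5. Its change of -0.76 ± 0.20 did not pass the test between E18.5 and E16.5 (FDR q = 0.062, limma), passed it without E18.5 sample 3 (FDR q = 0.020), and was called over the 3 days (FDR q = 0.048).

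The parts that turn the Mcm ring into a running helicase fell in 5 of 6 genes, with a median log2 change of -1.29. *Gins1* had 5.08, 4.99 and 5.0 at E16.5, 3.87, 3.87 and 3.97 at E17.5, and 3.41, 2.92 and 3.68 at E18.5. It was 3.22-fold lower on E18.5 than on E16.5 (FDR q = 0.0050, limma), from a low level that was above the array median on 5 of 9 arrays. *Gins2*, of the same 4-part GINS complex, had 6.51, 6.08 and 6.72 at E16.5, 5.65, 5.67 and 5.59 at E17.5, and 5.02, 4.07 and 5.19 at E18.5. Its change of -1.68 ± 0.31 (SE, FDR q = 0.021, limma) had the largest error of the 47 genes, with E18.5 sample 2 far below the rest of its day. The *Gins2* call was lost without E16.5 sample 1, 2 or 3 or E18.5 sample 1 (FDR q = 0.053 to 0.094). *Cdc45*, which holds the GINS complex to the ring, had 6.15, 6.01 and 6.05 at E16.5, 5.21, 5.21 and 5.16 at E17.5, and 4.5, 4.06 and 4.76 at E18.5, and its change was -1.63 ± 0.18 (SE, FDR q = 0.0048, limma). *Gins3* had 5.46, 4.98 and 5.11 at E16.5, 5.09, 5.2 and 5.09 at E17.5, and 3.92, 4.86 and 4.8 at E18.5. The first 2 days overlapped in *Gins3*, E18.5 sample 1 was the low one, and the change of -0.66 ± 0.27 did not pass the test (FDR q = 0.17, limma). *Gins4* and *Mcm10* fell by 0.95 and 0.81 (FDR q = 0.020 and 0.028, limma). These calls were lost without E16.5 sample 1, 2 or 3 (FDR q = 0.056 to 0.089 for *Gins4* and 0.082 to 0.089 for *Mcm10*), and for *Mcm10* also without E18.5 sample 1 or 2 (0.080 and 0.067).

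Polymerase alpha-primase, the enzyme that starts each new strand, fell in all 4 subunits, with a median log2 change of -1.40. *Prim1*, the catalytic primase subunit, had 6.66, 6.86 and 6.74 at E16.5, 5.84, 5.5 and 5.44 at E17.5, and 4.79, 4.1 and 4.41 at E18.5. Each day was below the day before in every sample, and *Prim1* was 4.99-fold lower on E18.5 than on E16.5 (-2.32 ± 0.18 SE, FDR q = 0.0021, limma), the largest change of the 47 genes. *Prim2*, the large primase subunit, had 7.53, 7.47 and 7.48 at E16.5, 6.62, 6.59 and 6.61 at E17.5, and 6.09, 5.86 and 6.06 at E18.5, with little spread on any day. Its change was -1.49 ± 0.11 (SE, FDR q = 0.0020, limma). *Pola1*, the catalytic polymerase subunit, had 6.14, 6.72 and 6.52 at E16.5, 5.79, 5.63 and 5.71 at E17.5, and 5.01, 5.08 and 5.4 at E18.5. It fell by 1.30 (FDR q = 0.0091, limma), with E16.5 sample 1 nearest to E17.5, and without E16.5 sample 3 its FDR q was 0.053. *Pola2*, the accessory subunit, had 6.82, 6.88 and 6.8 at E16.5, 6.41, 6.41 and 6.43 at E17.5, and 5.98, 5.89 and 6.11 at E18.5. Its change of -0.84 ± 0.11 was the smallest of the 4 and still passed the test (FDR q = 0.0065, limma).

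The 5 listed genes of the extending polymerases, delta and epsilon, all fell, with a median of -1.18. Further subunit genes of both were kept on the list of other replication genes. Of these, *Pole3* fell (log2 change -0.78, FDR q = 0.040, limma), while *Pole4* (-0.59, FDR q = 0.054) and *Pold4* (0.28, FDR q = 0.38) did not pass the test. *Pole*, the catalytic subunit of polymerase epsilon, which copies the leading strand, had 6.19, 6.85 and 6.41 at E16.5, 5.49, 5.49 and 5.6 at E17.5, and 4.36, 4.02 and 4.7 at E18.5. It was 4.36-fold lower on E18.5 than on E16.5 (-2.12 ± 0.23 SE, FDR q = 0.0042, limma) with the days well apart. *Pole2*, its accessory subunit, had 5.75, 5.84 and 5.65 at E16.5, 4.97, 4.97 and 4.74 at E17.5, and 4.65, 4.35 and 4.47 at E18.5, and its change was -1.25 ± 0.12 (SE, FDR q = 0.0034, limma). *Pold2*, an accessory subunit of polymerase delta, had 6.54, 6.29 and 6.68 at E16.5, 5.32, 6.07 and 5.51 at E17.5, and 5.4, 5.02 and 5.55 at E18.5. It fell by 1.18 (FDR q = 0.011, limma), with E17.5 samples 1 and 3 among the E18.5 values. *Pold1*, the catalytic subunit, fell by 1.16 (FDR q = 0.011, limma). *Pold3* had 6.71, 6.56 and 6.51 at E16.5, 6.37, 6.61 and 6.32 at E17.5, and 5.92, 6.1 and 5.95 at E18.5. Its change of -0.61 ± 0.11 (SE, FDR q = 0.020, limma) was the smallest of the 5 listed genes. Without E16.5 sample 3 the FDR q was 0.056 for *Pold2* and 0.059 for *Pold1*, and the *Pold3* call was lost without any E16.5 sample or without E18.5 sample 1 (FDR q = 0.061 to 0.066).

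Of the sliding clamp and the 5 subunits of its loader, 4 genes fell, with a median of -0.82. *Rfc4*, with the largest change of the loader subunits, had 6.68, 6.3 and 6.41 at E16.5, 5.42, 5.4 and 5.37 at E17.5, and 4.76, 4.34 and 4.48 at E18.5. The days were separate, and *Rfc4* was 3.83-fold lower on E18.5 than on E16.5 (-1.94 ± 0.16 SE, FDR q = 0.0024, limma). *Pcna*, the clamp itself, had 11.03, 10.85 and 11.18 at E16.5, 10.72, 10.33 and 10.63 at E17.5, and 10.4, 9.98 and 10.2 at E18.5. It fell by 0.83 (FDR q = 0.019, limma), and its E17.5 and E18.5 samples overlapped. *Rfc5* had 6.5, 6.2 and 6.64 at E16.5, 6.1, 6.34 and 6.1 at E17.5, and 5.68, 5.47 and 5.76 at E18.5, with E17.5 sample 2 above E16.5 sample 2. Its change was -0.81 ± 0.15 (SE, FDR q = 0.020, limma). *Rfc1*, the large subunit, had 5.89, 6.33 and 5.97 at E16.5, 5.8, 5.73 and 6.03 at E17.5, and 5.33, 5.5 and 5.78 at E18.5, and its change of -0.53 ± 0.17 did not pass the test (FDR q = 0.098, limma). *Rfc2* fell by 0.73 (FDR q = 0.046, limma), and *Rfc3* had a change of -0.91 ± 0.29 with FDR q = 0.096, but was called with all 9 arrays in the fit (0.041) and with the sample number as a block (0.0495). The *Rfc2* call was lost without any of the E16.5 samples or without E18.5 sample 1 or 2 (FDR q = 0.068 to 0.15), *Rfc5* without E16.5 sample 1 or 3 or E18.5 sample 1 or 2 (0.060 to 0.080), and *Pcna* without E16.5 sample 1 or 3 or E18.5 sample 2 (0.055 to 0.080).

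*Rpa1*, the large subunit of the single-strand binding complex, had 6.56, 6.6 and 6.94 at E16.5, 5.78, 5.72 and 5.98 at E17.5, and 5.47, 5.3 and 5.62 at E18.5. It was 2.36-fold lower on E18.5 than on E16.5 (-1.24 ± 0.15 SE, FDR q = 0.0058, limma), and the days did not overlap. *Rpa2*, the middle subunit, had 6.76, 6.48 and 7.11 at E16.5, 6.16, 6.38 and 5.94 at E17.5, and 5.71, 5.48 and 5.88 at E18.5. It fell by 1.09 (FDR q = 0.017, limma), a call lost without E16.5 sample 1 or 3 or E18.5 sample 1 or 2 (FDR q = 0.056 to 0.065). *Rpa3*, the small subunit, had 5.4, 5.41 and 5.75 at E16.5, 4.56, 5.38 and 5.39 at E17.5, and 4.93, 5.28 and 4.85 at E18.5. E17.5 sample 1 was below the E18.5 samples, and the change of -0.50 ± 0.16 did not pass the test (FDR q = 0.10, limma).

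*Lig1*, the ligase that joins Okazaki fragments, had 7.0, 7.03 and 7.22 at E16.5, 6.29, 6.34 and 6.39 at E17.5, and 5.46, 5.22 and 5.55 at E18.5. It was 3.19-fold lower on E18.5 than on E16.5 (-1.67 ± 0.13 SE, FDR q = 0.0021, limma), with tight replicates on every day. *Fen1*, the flap endonuclease, had 5.64, 5.78 and 6.0 at E16.5, 5.41, 5.61 and 5.2 at E17.5, and 4.89, 4.34 and 5.05 at E18.5. It fell by 1.05 (FDR q = 0.023, limma), and the call was lost without any of the E16.5 samples or without E18.5 sample 1 (FDR q = 0.059 to 0.097). *Dna2*, a nuclease and helicase that trims long flaps, had 4.51, 4.96 and 5.09 at E16.5, 4.66, 4.54 and 4.54 at E17.5, and 4.12, 3.66 and 4.34 at E18.5. Its change of -0.81 ± 0.22 did not pass the test (FDR q = 0.065, limma), and E16.5 sample 1 lay below all E17.5 samples.

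The fork protection genes held both one of the largest falls and the one gene with a change above 0. *Tipin* had 6.57, 6.54 and 6.35 at E16.5, 5.71, 5.18 and 5.71 at E17.5, and 4.81, 4.07 and 4.53 at E18.5. The days were separate, and *Tipin* was 4.04-fold lower on E18.5 than on E16.5 (-2.01 ± 0.19 SE, FDR q = 0.0035, limma). *Timeless*, which encodes the partner of Tipin in a heterodimer at the fork, had 5.92, 5.75 and 5.66 at E16.5, 5.92, 5.76 and 6.05 at E17.5, and 6.02, 5.74 and 6.29 at E18.5. Its days overlapped throughout, with a change of 0.24 ± 0.16 (SE, FDR q = 0.37, limma). *Wdhd1*, which links polymerase alpha to the helicase, had 5.61, 6.26 and 6.17 at E16.5, 5.54, 5.35 and 5.37 at E17.5, and 5.0, 4.32 and 5.05 at E18.5. It fell by 1.23 (FDR q = 0.029, limma), and the call was lost without E16.5 sample 2 or 3 or E18.5 sample 1 or 2 (FDR q = 0.063 to 0.11).

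**Figure D3:**
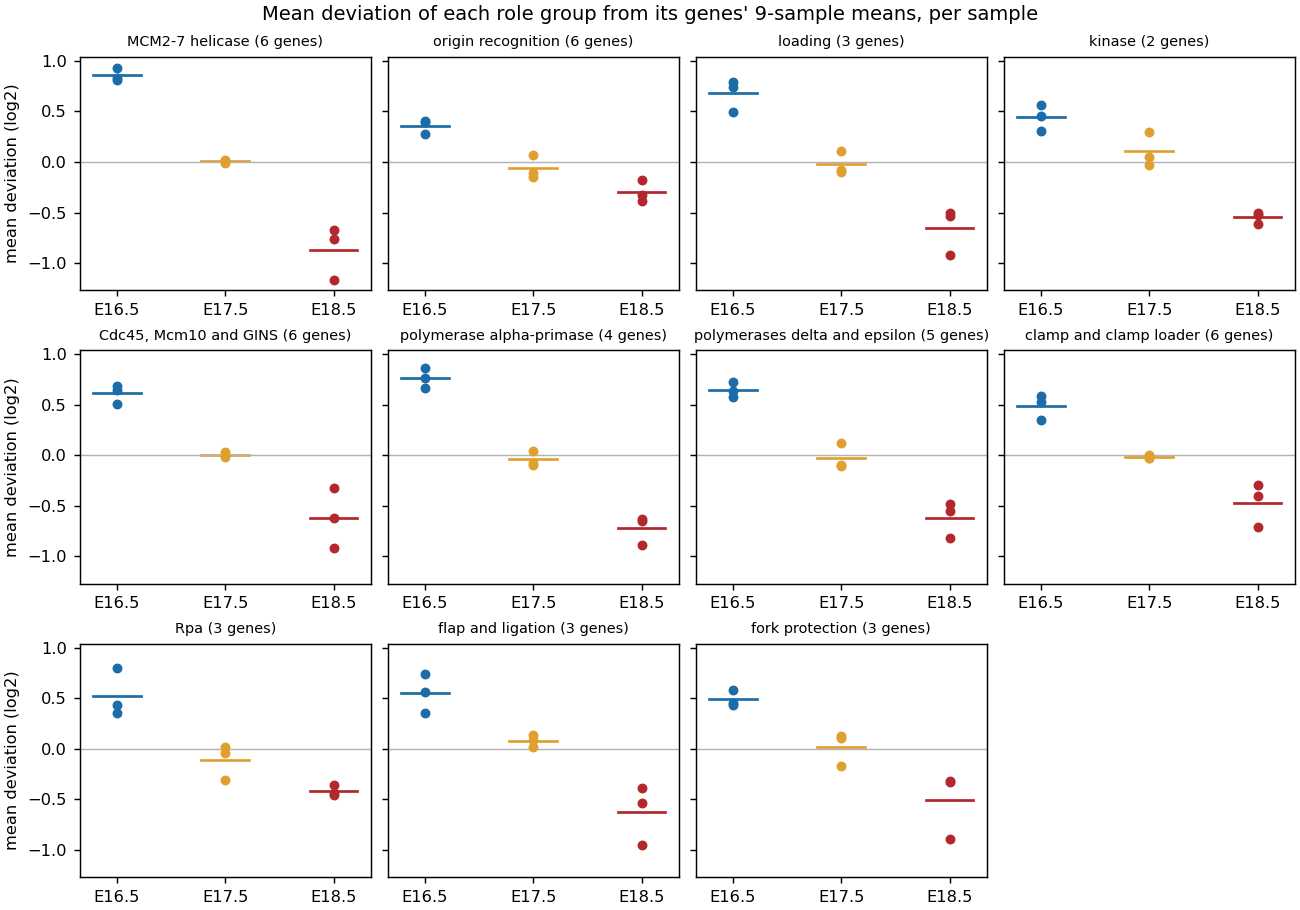
Mean over the genes of each role of the deviation (log2, vertical axis) from each gene's mean over the 9 samples, in each sample (points) with the mean of each day (lines), for the 11 roles. In every panel the E16.5 points lie above the E18.5 points, and the medians of the changes run from -1.75 in the Mcm ring to -0.60 in origin recognition.

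Partners in one complex differed in their measured log2 change, which is given as a description. Whether the probes of different genes report a change to the same degree was not tested. For 10 pairs, picked after the values were seen and so not tested, the log2 difference within each sample was set relative to its mean over the E16.5 samples, and only its shift over the days is read. *Tipin* minus *Timeless* was -1.91, -2.38 and -2.46 at E18.5, against -0.06, 0.07 and -0.01 at E16.5, a shift of -2.25 with the E17.5 samples between them. *Prim1* minus *Prim2* shifted by -0.83, *Pole* minus *Pole2* by -0.87, *Cdt1* minus *Gmnn* by -0.85 and *Pola1* minus *Pola2* by -0.46, and in these 5 pairs every E18.5 sample lay below every E16.5 sample. *Mcm4* minus *Mcm7* shifted the other way, by 0.61, with the E18.5 samples at 0.53, 0.56 and 0.75, against -0.21, 0.52 and -0.31 at E16.5. The other 4 pairs overlapped between the days. Their shifts were -0.45 for *Dbf4* minus *Cdc7*, -0.32 for *Orc2* minus *Orc3*, -0.14 for *Rpa1* minus *Rpa2* and 0.02 for *Pold1* minus *Pold2*. Pairs without overlap were not counted among other genes. *Gmnn* stood at 3.9, 3.6 and 3.84 at E18.5, below the array medians of 3.91, 3.86 and 3.87 in the same samples. A further fall of *Gmnn* may not be measurable at such levels, so the size of the *Cdt1* minus *Gmnn* shift is less certain.

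**Figure D4:**
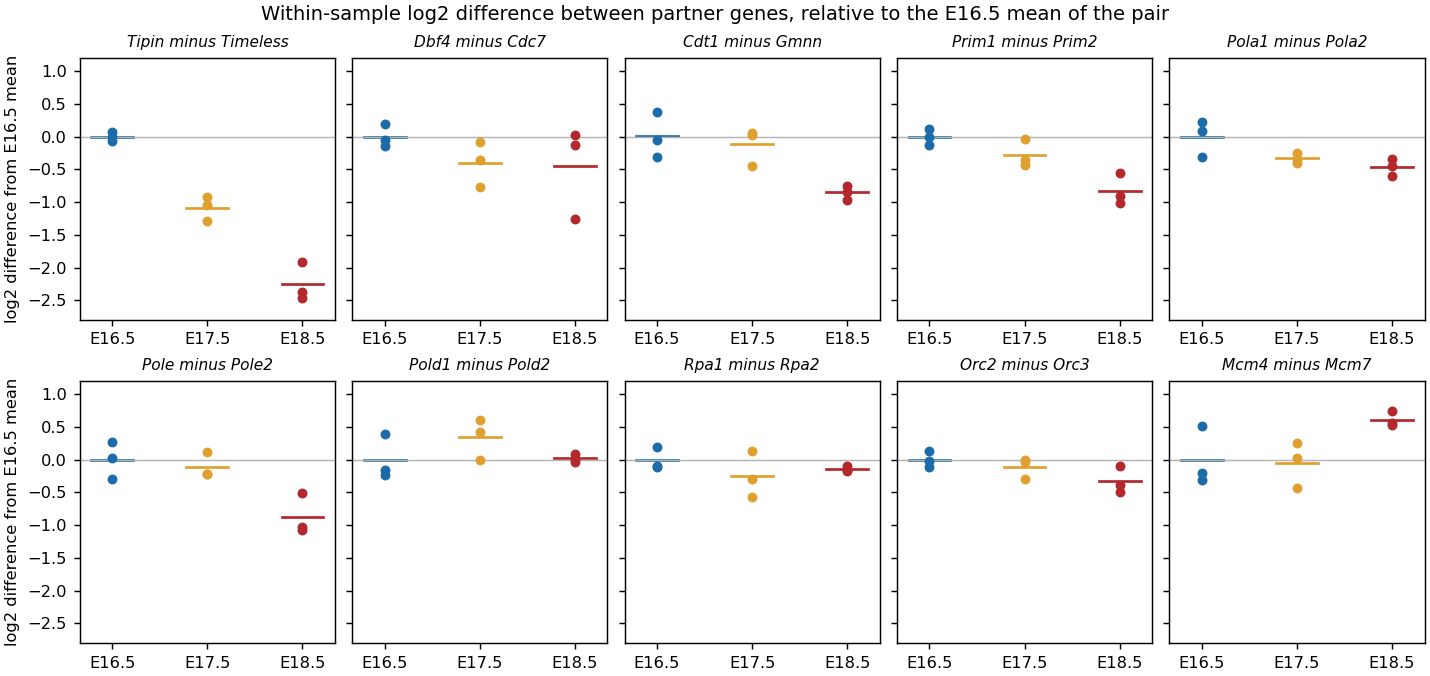
Log2 difference between the genes of each of 10 pairs within each sample, relative to the pair's E16.5 mean (vertical axis), by embryonic day (points for samples, lines for day means). *Tipin* minus *Timeless* shifts furthest, by -2.25, while *Pold1* minus *Pold2* shifts by 0.02.

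Over the 3 days, 37 of the 47 genes changed (limma moderated F, FDR q under 0.05), where 9.09% of all tested genes did. These were the 36 genes above and *Cdc7*. The mean of E17.5 lay between those of the other days in 46 genes, a count not made over all tested genes. In 27 genes the samples of the 3 days stood in falling order without overlap, which was so for 3.18% of all tested genes. Between E17.5 and E16.5, 6 genes were called lower (*Mcm3*, *Mcm6*, *Gins1*, *Prim2*, *Pole2* and *Rfc4*) and 0 higher, where 0.149% of all tested genes were called lower. At an unadjusted p under 0.05, 34 of the 47 were lower in this step, as were 1306 of all 14096 tested genes. Between E18.5 and E17.5, 14 genes were called lower (*Mcm2*, *Mcm3*, *Mcm5*, *Mcm6*, *Mcm7*, *Orc6*, *Cdt1*, *Cdc45*, *Prim1*, *Prim2*, *Pole*, *Rfc4*, *Lig1* and *Tipin*) and 0 higher, where 0.717% of all tested genes were called lower. In this step 34 were lower at an unadjusted p under 0.05, as were 1274 of all 14096 tested genes. Both steps use the E17.5 samples. The calls of the earlier step were lost without any single sample of E16.5 or E17.5 (0 genes each) and numbered 10 without E18.5 sample 2. They also numbered 0 with no filter on low values, 0 with the sample number as a block and 1 with trend and robust settings in limma. The calls of the later step numbered 0 without E17.5 sample 2 or 3, 7 without E17.5 sample 1, 9 without E18.5 sample 1, 7 without E18.5 sample 2 and 9 with the sample number as a block.

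The median log2 change of the 47 genes was -0.60 in the earlier step and -0.55 in the later one. A direct test of whether the steps differ called 0 genes and had 0 genes at an unadjusted p under 0.05 (limma), with the smallest unadjusted p at 0.057 for *Pole2* (FDR q = 0.62). The *Orc* genes had a median of -0.40 in the earlier step and -0.16 in the later one, and the Mcm genes -0.85 and -0.92. *Gins1* had a change of -1.12 between E17.5 and E16.5 and -0.56 between E18.5 and E17.5. *Gins3* and *Cdc7* had small earlier changes of -0.06 and -0.13 and later ones of -0.60 and -0.63, of which none passed the test.

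**Figure D5:**
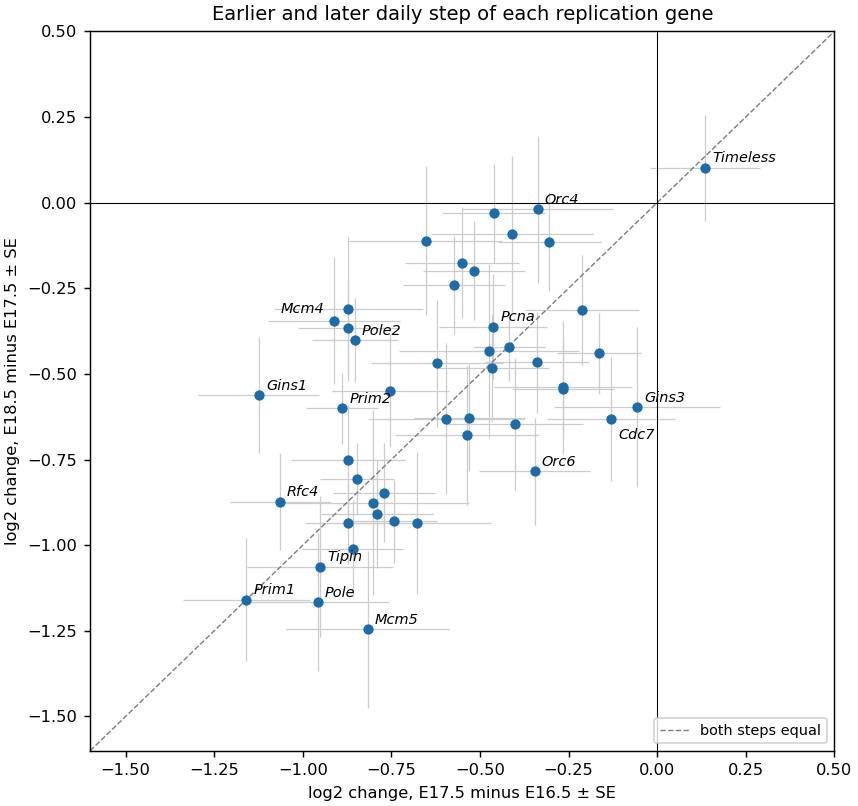
Log2 change of each replication gene between E17.5 and E16.5 (horizontal axis) and between E18.5 and E17.5 (vertical axis), with bars of ± SE and a dashed line where the steps are equal. The later fall was the larger in 25 genes and the earlier one in 21, *Timeless* had no fall in either step, and *Prim1* lies on the line with -1.16 in each step.

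Of 40 other replication genes listed, 24 fell. The list includes further initiation factors, *Pold4*, *Pole3* and *Pole4* of the extending polymerases, alternative clamp loaders, histone chaperones, RNase H2, topoisomerases and maintenance methylation. Of the listed genes 39 were tested, and 24 were called lower on E18.5 than on E16.5, 0 higher and 15 neither way. Over all tested genes 6.21% were called lower. The median log2 change of the 39 was -0.90, and *Pold4* (0.28), of polymerase delta, was the one with a change above 0. At an unadjusted p under 0.05, 31 were lower and 0 higher, where 2383 of all 14096 tested genes were lower and 1571 higher. Every E18.5 sample lay below every E16.5 sample in 30 of the 40, which was so for 18.3% of all tested genes. *Pclaf*, which encodes a protein that binds the Pcna clamp, had 7.35, 7.37 and 7.35 at E16.5, 6.31, 6.34 and 6.22 at E17.5, and 5.26, 5.12 and 5.81 at E18.5, and its change was -1.96 ± 0.18 (SE, FDR q = 0.0032, limma). *Exo1*, an exonuclease, had 5.6, 5.7 and 5.81 at E16.5, 5.03, 5.03 and 4.7 at E17.5, and 3.73, 3.53 and 4.35 at E18.5, and fell by 1.83 (FDR q = 0.0053, limma). *Ticrr*, an origin firing factor, had 5.16, 5.75 and 4.92 at E16.5, 4.7, 4.56 and 4.4 at E17.5, and 3.57, 3.42 and 3.47 at E18.5. It fell by 1.79 (FDR q = 0.0056, limma), with the days of all 3 genes separate. *Exo1* and *Ticrr* lay above the array median on 7 and 6 of the 9 arrays, so the size of their change is less certain. *Dtl*, the receptor of the ubiquitin ligase that targets Cdt1, fell by 1.73 (FDR q = 0.0021, limma). *Chaf1b* and *Asf1b*, histone chaperones that act behind the fork, fell by 1.71 and 1.63 (FDR q = 0.0069 and 0.0065, limma). *Top2a*, the topoisomerase of dividing cells, had 8.36, 9.27 and 8.66 at E16.5, 8.25, 8.05 and 8.06 at E17.5, and 7.0, 7.05 and 7.49 at E18.5 and fell by 1.58 (FDR q = 0.013, limma). *Top1* and *Top2b* had changes of -0.14 ± 0.30 and -0.33 ± 0.26 (SE), short of the threshold (FDR q = 0.78 and 0.43, limma), and the difference from *Top2a* was not tested. Without 1 sample the count of calls was 12 to 19, with 12 without E16.5 sample 3, 14 without E16.5 sample 2 and 14 without E18.5 sample 2, and 15 without E18.5 sample 1. Lower calls over all tested genes then numbered 217 to 632, against 875 in the main fit.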

How the data were processed

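Total RNA of sorted PLECs (9 pooled samples, 3 for each day) had been labelled and hybridised to Mouse Gene 2.0 ST arrays. The log2 values were deposited by the authors after RMA, that is background correction, quantile normalization and median polish by gene, from affy 1.36.1 under R 2.15.1, with probes mapped to Entrez Gene. The scanner's intensities were left aside. The precision is set by the number of samples, as arrays hold no read counts. Of 25206 rows, 23740 were named through the RefSeq gene table by Entrez number and 1466 have no name here.

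Fits used limma 3.58.1 (lmFit, eBayes) under R 4.3.3 on all rows and had been tested on simulated data. The FDR q was computed by Benjamini-Hochberg adjustment over 14096 genes, those exceeding their array's median on 1 or more of 9 arrays, with calls at an FDR q under 0.05. The fit of E18.5 against E16.5 held 6 arrays, the other contrasts all 9. A fold is 2 to the power of the size of the log2 change. The 47 genes, the lists and the tests were chosen with earlier results of these data known.

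Values in every sample are given for the *Mcm* genes and, in each other role, for the called member with the largest change, the next 2 called members and the member with the smallest change, and for the 6 largest called changes of the other replication genes a change with its test. *Top1*, *Top2a*, *Top2b*, *Pold4*, *Pole3* and *Pole4* were named after their values were seen. RefSeq promoter windows (GRCm38.p6) were searched on both strands. *Mcm4*, *Gmnn*, *Gins1*, *Gins2*, *Gins4*, *Prim2*, *Pole*, *Rfc2* and *Tipin* had no entry. The *Ccl21a*, *Lyz2*, *Hba-a1* and *Hbb-bt* markers were not matched. Alternatives were no filter, a filter at 3 arrays, centring on the array median, eBayes with trend and robust settings, the sample number as a block, all 9 arrays in the fit, leaving out each sample, and the given strand only for the motif. Windows near the outer start were added after seeing the data.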

Additional observations from a re-analysis of the deposited data

How the results depend on the processing

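Under every alternative run 0 replication genes were called higher between E18.5 and E16.5. The count of genes called lower was 36, and it was 18 to 36 without 1 sample, 34 with no filter, 36 with a filter at 3 arrays, 39 with arrays centred on their median, 35 with trend and robust settings and 41 with all 9 arrays in the fit. The median log2 change was -1.22 to -1.0 without 1 sample. Centring changed the calls over all tested genes to 1337 lower and 491 higher, against 875 lower and 532 higher, and the lower calls numbered 532 with no filter and 217 to 632 without 1 sample of E16.5 or E18.5. For E17.5 against E16.5, 6 genes were called, and 0 with no filter, 11 with centring, 1 with trend and robust settings and 0 to 10 without 1 sample. For E18.5 against E17.5, 14 were called, and 0 to 18 without 1 sample. Over the 3 days, 37 were called, and 26 to 37 without 1 sample. Of the other replication genes 24 were called, and 12 to 19 without 1 sample. With the sample number as a replicate block the counts were 36 for E18.5 against E16.5, 0 for E17.5 against E16.5, 9 for E18.5 against E17.5, 33 over the 3 days and 24 of the other replication genes, where *Mcm10* lost its call (FDR q = 0.059, limma) and *Rfc3* gained one (0.0495). With all 9 arrays *Orc3*, *Gmnn*, *Cdc7*, *Rfc3* and *Dna2* gained calls (0.022 to 0.049), and with centring *Orc3*, *Cdc7* and *Dna2* (0.031 to 0.040). Without the filter *Orc1* (0.056) and *Rfc2* (0.079) lost theirs, and *Rfc2* also with trend and robust settings (0.055). The labels do not say that the numbers pair the samples, and the main fits did not treat them as pairs. Of 9 same-numbered pairs 2 correlated at over 0.1 (range -0.36 to 0.29). With 3 samples a day such correlations cannot tell whether same-numbered samples share a litter or a day of work. The share of genes with the E2F letters was 39.5% on both strands and 21.1% on the given strand, which by construction searches fewer letters, and 38.2% in windows near the outer start. Of 564 values of single genes under alternatives, 491 kept their direction and side of the threshold, 62 lost it, 11 gained it and 0 changed sign. The causes of these differences were not tested. With 3 pooled samples a day and no single-cell measure, the share of cells in S phase was not measured.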

Other observations

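In the same promoter windows, the letters CCAAT stood on either strand in 21 of the 38 genes (55.3%), where 41.1% of the genes of the table hold them, and the letters TTTGAA in 7 of the 38 (18.4%), where 20.2% do. The E2F letters stood in the windows of 11 of 33 other replication genes (33.3%). These shares are descriptions with no test.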
